A study of Mus musculus with 12 samples.

Results

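Zic genes encode zinc finger transcription factors, and the members described are Zic1, Zic2, Zic4 and Zic5, 4 of the 53392 gene rows in the deposited tables. They were found by symbol through their Ensembl identifiers. They were chosen by their count and TPM values in the maxillary cKO comparison, so those values are a description here and carry no test. All 4 were next to absent from palatal shelves at E13.5 and from control maxillary processes at E11.5. Zic2, Zic5 and Zic1 were present in the 3 maxillary libraries labelled Srsf3 cKO, and Zic4 remained at or near 0 there.

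RNA was measured by polyA sequencing in 12 libraries from embryos of strain background 129S4, as 4 groups of 3 biological replicates. Palatal shelf mesenchyme at E13.5 came from Pdgfra+/+ embryos (wild type) and from PdgfraPI3K/PI3K embryos, which are homozygous for a knock-in allele of the PDGF receptor alpha that cannot recruit the kinase PI3K. Maxillary process mesenchyme at E11.5 came from Srsf3fl/fl;Wnt1-Cre+/+ embryos (control, floxed alleles without Cre) and Srsf3fl/fl;Wnt1-Cre+/Tg embryos (labelled cKO). Both maxillary groups carry the floxed Srsf3 alleles, and the Wnt1 promoter directs Cre to the dorsal neural tube and the neural crest that leaves it. Trypsin was used to take off the ectoderm, a step that does not remove vessels, nerves or other mesenchyme. The 11 ectoderm markers, such as Krt14 and Epcam, nonetheless summed to 448 to 1073 CPM in the palatal libraries (CPM, counts scaled by library total and composition), against 2.16 to 24.1 CPM in the maxillary libraries. In bulk tissue, fewer cells of a type and less RNA per cell cannot be told apart.

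Zic proteins bind DNA through zinc fingers related to those of the GLI proteins that transmit Hedgehog signals, and they also act as cofactors of other transcription factors. In the embryo they are known from the dorsal neural tube, the neural crest at its origin, the somites and parts of the head mesenchyme. Loss of ZIC2 is a cause of holoprosencephaly, and ZIC1 and ZIC4 are deleted together in some patients with Dandy-Walker malformation of the cerebellum. The genes lie in head-to-head pairs, Zic2 with Zic5 and Zic1 with Zic4.

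In units of 1000000 estimated counts, library totals ran from 30.5 to 37.4 in the palatal shelf and from 15.9 to 27.9 in the maxillary process. Each pair of libraries within a group differed beyond sampling noise (lowest chi-square over its degrees of freedom 11.75), and all 12 were kept as replicates. The 12 facial mesenchyme markers, such as Prrx1 and Twist1, were all detected, with summed levels of 3502 to 3828 CPM in control and 1983 to 3103 CPM in cKO maxillary libraries. Of the 12, 10 were lower and 2 higher in cKO, with a median log2 difference of -0.382 against 0.004 for all genes. Without cKO library 1, 9 were lower and 3 higher, with a median of -0.242. With no overlap 5 were lower and 1 higher, as were 9.37% and 8.76% of all genes tested. DESeq2 called 2 of them, 1 higher, against 2.32% of all genes. Library 1 of the cKO group stood apart, with the lowest facial mesenchyme sum of the 6 and the highest sums of periocular mesenchyme, endothelial, macrophage and red blood cell markers, and values without it are given for Zic1, Zic2 and Zic5 and for the other genes and lists where it made the main differences. Srsf3 had 574 ± 25.5 CPM in control and 586 ± 105 CPM in the libraries labelled cKO (SD, n = 3 each). By library it was at 597, 578 and 547 CPM in control and at 468, 669 and 622 CPM in cKO libraries 1 to 3. The group's gene total thus did not show the deletion, and each direction below rests on the labels.

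Zic2 and Zic5 share a locus on chromosome 14 (GRCm38, GENCODE M21). Zic2 spans 122475435 to 122479852 on the plus strand and Zic5 spans 122456795 to 122465677 on the minus strand, with 9758 bases between their starts. Zic2 (ENSMUSG00000061524.8) had 6, 9 and 13 estimated counts in control libraries 1 to 3, which is 0.374, 0.521 and 0.586 CPM. In the 3 cKO libraries it had 2001, 1770 and 1327 counts, which is 103, 64.6 and 72.6 CPM. The 2 groups lay far apart, and the lowest cKO library was above the highest control library by a wide margin. Length-scaled levels of Zic2 were 0.361 ± 0.0903 TPM in control and 57.4 ± 14.2 TPM in cKO libraries (SD, n = 3 each). That is a move from above 2.4% of the genes tested to above 78.8% of them. The fitted log2 difference in CPM (cKO minus control) was 7.30 with a standard error of 0.28, the largest but for 6 of 14254 genes, and it was 7.08 without cKO library 1.

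Zic5 (ENSMUSG00000041703.7), which is linked to neural crest formation and closure of the neural tube, followed its neighbour. It had 18, 6 and 6 estimated counts in the controls and 604, 538 and 398 counts in the cKO libraries. As CPM these were 1.12, 0.348 and 0.270 against 31.2, 19.6 and 21.8. Control library 1 was thus the highest of its group for Zic5 but the lowest for Zic2. The level of Zic5 in cKO libraries was 12.8 ± 0.670 TPM (SD, n = 3), above 43.0% of the genes tested there. Its log2 difference in CPM was 5.43 with a standard error of 0.47, and it was 5.21 without cKO library 1. Without control library 1, which held 18 of the 30 control counts, it was 6.29. Of the 31-base stretches in its annotated transcripts, 494 of 4848 also occur in the pseudogene Gm12241, which is listed at 0 counts in all 12 libraries.

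**Figure D1:**
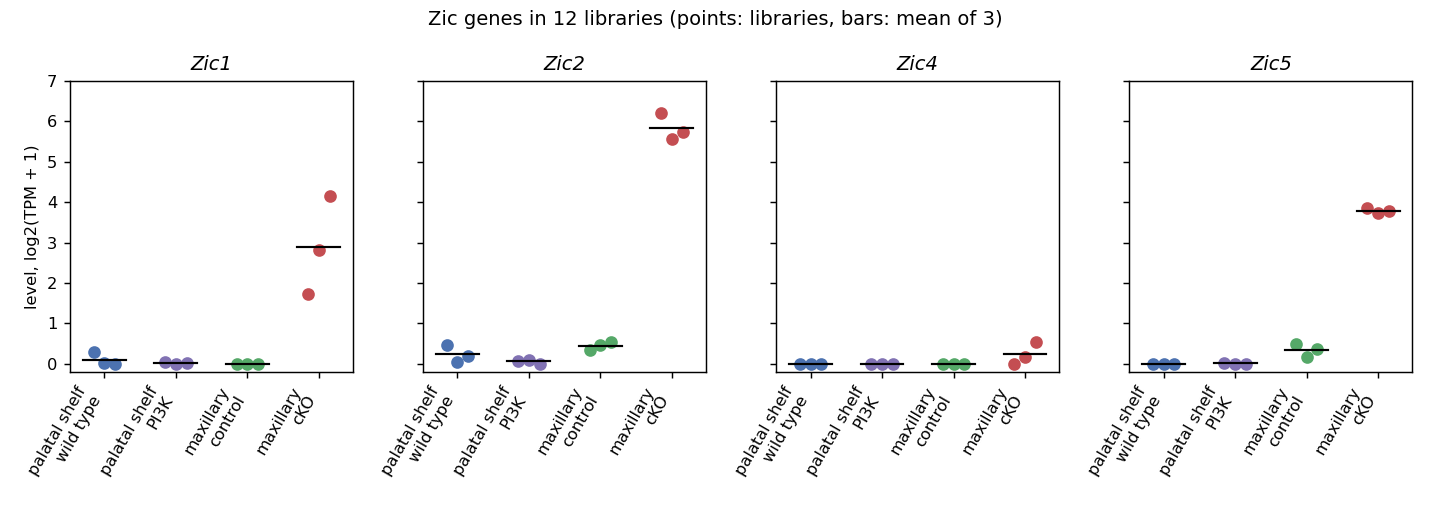
Levels of the 4 Zic genes as log2(TPM + 1) on the vertical axis, in the 4 groups on the horizontal axis; points are libraries and bars are means of 3. Zic2, Zic5 and Zic1 are high in the cKO group alone, and Zic4 is at or near 0 in all 12 libraries.

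The Zic1 and Zic4 pair lies on chromosome 9, Zic1 at 91358058 to 91365810 on the minus strand and Zic4 at 91362413 to 91389348 on the plus strand. Zic1 (ENSMUSG00000032368.14) was listed at 0 in all 3 control libraries. The libraries labelled cKO held 86, 133 and 394 estimated counts of it, which is 4.44, 4.86 and 21.6 CPM. The mean of 10.3 CPM was at least 62.2-fold higher than the floor of 0.165 CPM that 3 counts in each control library would give. Library 3 of the cKO group carried much of this mean, and without it the lower bound was 28.3-fold, while without cKO library 1 it was 79.9-fold.

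Zic4 (ENSMUSG00000036972.14) did not follow Zic1 to a comparable level. It was listed at 0 in the 3 controls and in cKO library 1, and had 5 and 12 estimated counts in cKO libraries 2 and 3. Its groups overlapped at 0, and it did not pass the filter on low counts. The 2 gene models overlap over 3398 bases on opposite strands. Their annotated transcripts share 33 stretches of 31 bases in opposite orientation, of 5677 in Zic1 and 10342 in Zic4, and the use of strand in the counting is not stated, so reads from those shared stretches are uncertain between the pair. Of the members, 3 of 4 were higher in each cKO library than in any control library, against 8.76% of all genes tested, and those 3 are the ones that passed the filter. None of the 4 was lower without overlap, as 9.37% of all genes tested were. Past an FDR of 0.05 lay 0.0561% of all genes tested as higher and 0.0281% as lower. The genes were chosen on this comparison, and nothing is read from these counts.

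By length-scaled level in the cKO libraries the order was Zic2, Zic5, Zic1 (8.37 ± 7.49 TPM) and Zic4 (0.193 ± 0.240 TPM; SD, n = 3 each). Zic2 lay above Zic5 in all 3 libraries with no overlap. Zic5 and Zic1 did not differ beyond their spread, because Zic1 reached 16.7 TPM in cKO library 3, above each Zic5 value. Zic1 lay above Zic4 in all 3 libraries, the lowest Zic1 value being 2.30 and the highest Zic4 value 0.462 TPM. In the controls Zic2 and Zic5 (0.265 ± 0.136 TPM) overlapped and the rest were at 0.

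The 3 cKO libraries did not carry the 4 genes in 1 fixed proportion. Of their summed TPM, Zic2 made up 82.3%, 71.7% and 63.5% in cKO libraries 1, 2 and 3, and Zic1 made up 2.57%, 9.33% and 20.45%. The ratio of Zic2 to Zic1 in TPM accordingly ran from 32.0 in library 1 through 7.68 in library 2 to 3.11 in library 3. Zic2 to Zic5 stayed in a narrower band, at 5.43, 3.81 and 4.11.

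Zic2 and Zic5 had nearly the same spread over these libraries in CPM. Relative to its own cKO mean, Zic2 was at 1.29, 0.806 and 0.906 and Zic5 at 1.29, 0.811 and 0.900. Zic1 and Zic4 had another order, with cKO library 3 highest at 2.10 and 2.35 times their means. The coefficient of variation in CPM was 25.5% for Zic2 and 25.4% for Zic5, against 94.9% for Zic1. In TPM the match between Zic2 and Zic5 was lost, with coefficients of 24.8% and 5.2%. With 3 libraries this split between the chromosome 14 pair and the chromosome 9 pair was not tested.

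**Figure D2:**
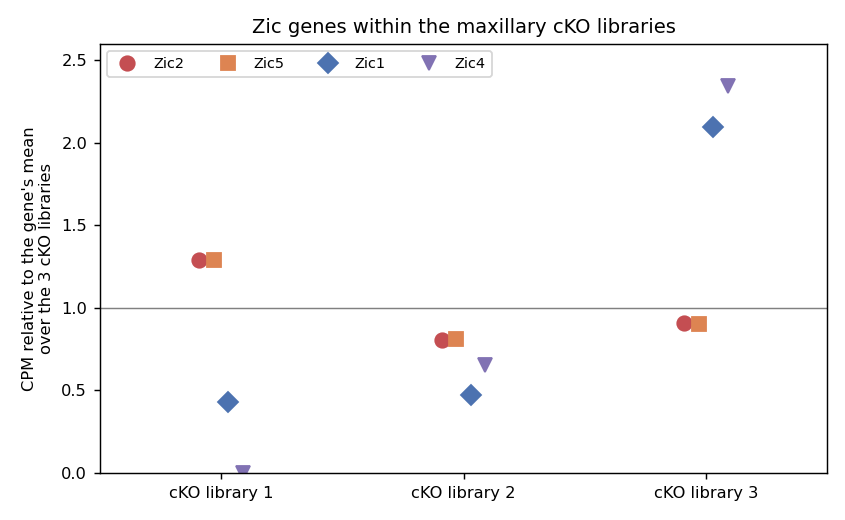
CPM of each Zic gene divided by its mean over the 3 cKO libraries (vertical axis, no unit) in cKO libraries 1 to 3 (horizontal axis); the grey line marks the mean. In CPM, Zic2 and Zic5 coincide and peak in library 1, while Zic1 and Zic4 peak in library 3.

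The tables give gene totals, but the ratio of CPM to TPM of a gene rises with the transcript length that its reads were assigned to, since TPM divides by length. For Zic2 this ratio was 1.41, 1.39 and 1.40 in cKO libraries 1 to 3. For Zic5 it was 2.30, 1.605 and 1.72, and for Zic1 1.93, 0.800 and 1.29. The ratio thus varied between libraries of 1 genotype for Zic1 and Zic5 and hardly at all for Zic2. The annotated transcripts of Zic1 measure 395, 2811 and 5606 bases and those of Zic5 measure 705 and 4767 bases. Correspondingly, cKO libraries 1 and 2 had near equal Zic1 in CPM but 2.30 and 6.07 in TPM. No Zic gene reached the minimum of 50 counts in all 6 libraries of either tissue, so this length was not compared between genotypes.

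Zic1, Zic4 and Zic5 matched the RefSeq promoter table, and Zic2 did not. The promoters of Zic1 and Zic5 are shown because these genes, 1 from each pair, were both near 0 in the controls and present in the cKO libraries. They run from 250 bases before to 50 after the RefSeq start (GRCm38.p6), Zic1 at chr9:91365719-91366018 on the minus strand and Zic5 at chr14:122465609-122465908 on the minus strand. Capitals mark CCAAT and GGGCGG on either strand, the CCAAT box and the GC box of general promoters.
Zic1: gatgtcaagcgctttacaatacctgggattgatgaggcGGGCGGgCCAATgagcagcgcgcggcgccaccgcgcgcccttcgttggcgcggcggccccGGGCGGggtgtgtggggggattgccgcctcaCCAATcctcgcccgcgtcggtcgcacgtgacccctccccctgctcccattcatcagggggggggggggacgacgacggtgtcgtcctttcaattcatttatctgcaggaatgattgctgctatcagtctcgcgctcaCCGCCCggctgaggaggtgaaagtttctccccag
Zic5: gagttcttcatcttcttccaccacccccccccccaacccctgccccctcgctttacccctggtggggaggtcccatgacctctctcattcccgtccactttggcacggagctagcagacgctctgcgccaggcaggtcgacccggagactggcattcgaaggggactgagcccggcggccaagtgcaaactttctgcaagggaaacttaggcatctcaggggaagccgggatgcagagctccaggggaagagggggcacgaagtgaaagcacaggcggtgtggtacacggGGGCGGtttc

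The Zic1 window holds 2 CCAAT and 3 GGGCGG matches, and the Zic5 window holds 0 and 1. Such matches occur in 37.4% and 35.7% of the 32851 promoter windows in the RefSeq table. Zic1 is rich in CpG, with 31 in its window (more than 89.4% of all windows, whose median is 7), and Zic5 has 15 (more than 65.4%). The window of Zic4, the member near 0, has 8 CpG and neither motif. CCTGCTG, a core that Zic proteins are reported to bind, has 0 matches in the windows of Zic1, Zic4 and Zic5 and occurs in 10.5% of all windows. GACCACCCA, the GLI site, has 0 matches in these windows and occurs in 0.3% of all windows. E-boxes (CANNTG) occur 1 time in Zic1, 2 times in Zic4 and 1 time in Zic5, in 72.3% of all windows. TATAAA has 0 matches in these windows and occurs in 13.6% of all windows.

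The genes around each pair were examined to see how far along the chromosome the difference ran. None of the flanking genes tested passed the threshold (0 of 6), where 0.0842% of the 14254 genes tested in the maxillary process did (edgeR quasi-likelihood test, FDR 0.05). At an unadjusted p under 0.05 there were 4 of the 6, against 12.2% of all genes tested, and DESeq2 called 1 flanking gene (2.32% of all genes), 2610035F20Rik, which the edgeR filter on low counts left out. Next to Zic2 and Zic5, the mitochondrial enzyme gene Pcca, 54.5 kb beyond Zic2, had 28.4 ± 0.333 CPM in control and 28.4 ± 1.98 CPM in cKO libraries (log2 difference -0.0009, and 0.05 without cKO library 1). On the other side Clybl, also a mitochondrial enzyme gene, 54.6 kb beyond Zic5, had 7.96 ± 1.05 and 13.3 ± 4.57 CPM, a log2 difference of 0.74 (edgeR, adjusted p 0.35) that was 0.42 without cKO library 1.

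Closer to the pair, low levels of RNA were found with the same direction for some gene models but not for all. Between Zic5 and Zic2 lies 2610035F20Rik, a non-coding transcript on the minus strand, which was listed at 0 in the controls and had 6, 18 and 19 counts in the cKO libraries. The gene model Gm5089, 5.7 kb beyond Zic5, had 7 counts over the 3 controls and 18, 29 and 14 counts in the cKO libraries, a log2 difference of 2.86 with and without cKO library 1 (edgeR, adjusted p 0.2795 and 0.3137). On the Zic2 side, Gm10837, 10.7 kb beyond Zic2, had 1 count, in cKO library 3. The pseudogenes Gm9399 and Gm18143, 14.8 and 33.6 kb beyond Zic2, were listed at 0 in the 12 libraries. Around Zic1 and Zic4, all 6 other annotated gene models within 50 kb were listed at 0 in the 12 libraries. The nearest protein-coding genes there are far away, and Tbc1d2b, 1087 kb beyond Zic1, had 57.3 ± 10.5 CPM in control and 59.8 ± 6.63 CPM in cKO libraries. Adamts7, 1150 kb beyond Zic1, had 67.0 ± 20.35 against 45.6 ± 4.16 CPM (adjusted p 0.3721, edgeR; SD, n = 3 each). Plscr1, 860 kb beyond Zic4, had 11.1 ± 2.03 against 14.6 ± 0.648 CPM (adjusted p 0.4077, edgeR; SD, n = 3 each).

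**Figure D3:**
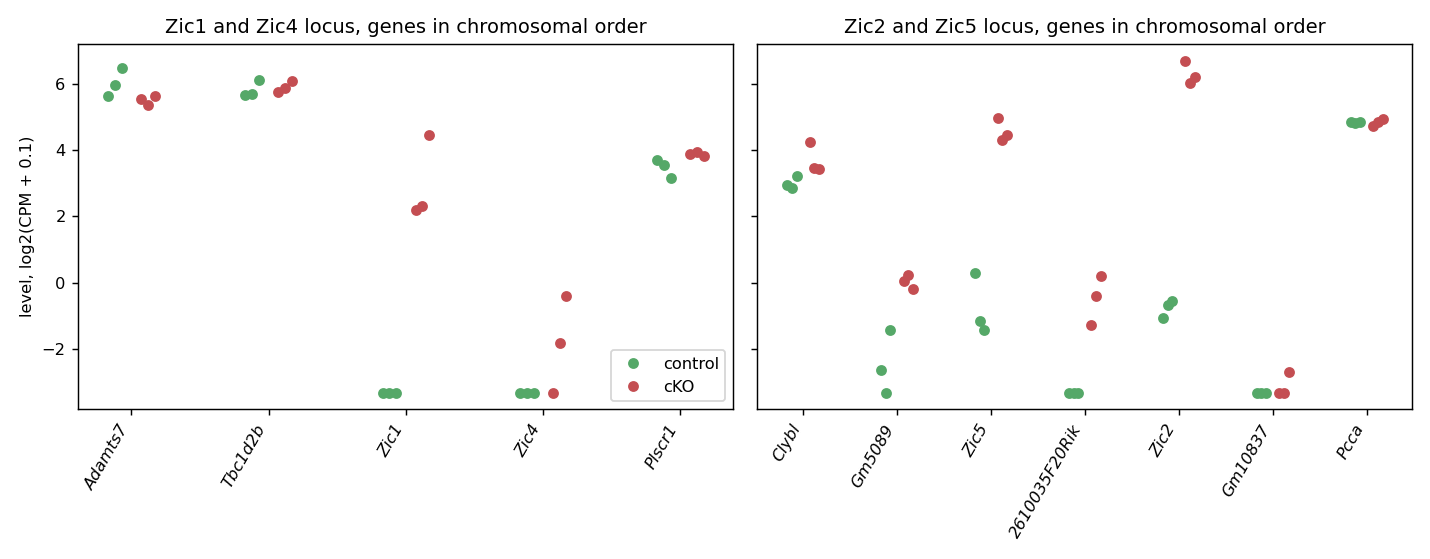
Levels as log2(CPM + 0.1) of the genes at each Zic pair that had a count in the maxillary libraries, in chromosomal order; each point is 1 library, control in green and cKO in red. Zic1, Zic2 and Zic5 part the groups, as do Clybl, Gm5089, Plscr1 and 2610035F20Rik (higher in cKO) and Adamts7 (lower) by smaller margins, while Zic4, Gm10837, Pcca and Tbc1d2b overlap. Of all genes tested, 8.76% were higher and 9.37% lower in cKO with no overlap. Adamts7 and Plscr1 lie 1150 and 860 kb from Zic1 and Zic4.

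In the palatal shelf the question was whether the PI3K allele alters these genes. None of the 4 members passed the filter on low counts, and 0 of 16525 genes tested were called (0%; edgeR quasi-likelihood test, FDR 0.05), with 354 at an unadjusted p under 0.05 (2.14%) and 4 called by DESeq2 (0.0145%). Of all genes tested, 3.12% were higher and 3.11% lower in the PI3K libraries with no overlap. Zic2 had 16, 1 and 6 estimated counts in the wild-type libraries and 2, 3 and 0 in the PI3K libraries, and the groups overlapped. Zic1 had 4, 1 and 0 counts in wild type and 3, 0 and 1 in PI3K libraries. Zic5 had 1 count over all 6 libraries and Zic4 had 0. A count of 0 allows a level of up to 0.0802 to 0.0983 CPM in these libraries (3 counts of each total).

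With no filter on low counts, Zic2 gave a log2 difference of -2.14 (PI3K minus wild type) (edgeR quasi-likelihood test, adjusted p 0.9517; 0.9999 by DESeq2), and Zic1 gave -0.31 (edgeR, adjusted p 0.9995; 0.9999 by DESeq2). No difference of a Zic gene between the palatal shelf genotypes was detected at these counts. These libraries are deeper than the maxillary ones, where Zic2 went from at most 13 to at least 1327 counts. Zic1 and Zic2 levels over the 6 palatal libraries, as log2 CPM with a prior count of 2, had a Pearson r of 0.439 (exact permutation p 0.3917, adjusted 0.5778 over 3 pairs) and a Spearman rho of 0.086 (exact permutation p 0.9194), and r was -0.897 without the 2 libraries farthest from the median and 0.895 on log2(TPM + 1). With 0 to 16 counts a library this is no finding.

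Across the study, wild-type palatal shelves at E13.5 had 0.182 ± 0.189 TPM of Zic2 and control maxillary processes at E11.5 had 0.361 ± 0.0903 TPM (SD, n = 3 each), and the ranges overlapped. The 2 tissues differ in stage and were deposited in separate tables, so these levels are set side by side with no test.

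The GLI and Hedgehog list was read because Zic and GLI proteins share their type of zinc finger. Of its 7 genes, all tested in the maxillary process, 0 passed the threshold (edgeR quasi-likelihood test; 2 at an unadjusted p under 0.05, and 1, Hhip, by DESeq2), where these shares over all genes were 0.0842%, 12.2% and 2.32%. In direction 2 were higher and 5 lower, with a median log2 difference of -0.015 against 0.004 for all genes, and without cKO library 1 it was 5 higher and 2 lower with a median of 0.07. Gli3, a repressor and activator of Hedgehog targets, had a log2 difference of -0.01 (edgeR, adjusted p 0.9824), and 0.07 without cKO library 1. Hhip, which binds Hedgehog ligands, had the largest difference, at 2.56, 1.16 and 1.22 CPM in the control group against 4.13, 4.05 and 5.04 CPM in the cKO group (log2 difference 1.43, adjusted p 0.2705, edgeR). Gli2, the main activator, had 240.3 ± 34.7 and 182 ± 26.6 CPM (SD, n = 3 each; adjusted p 0.3592, edgeR).

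The list of Zic interactors and reported targets held 10 genes, of which 8 were tested and 0 passed (edgeR quasi-likelihood test; 5 at an unadjusted p under 0.05, and 2, Ephb1 and Foxd3, by DESeq2), beside the same shares over all genes of 0.0842%, 12.2% and 2.32%. Their median log2 difference was -0.355, with 3 higher and 5 lower. Ephb1, a receptor whose expression in retinal axons depends on Zic2, was at 0.624, 0.348 and 0.766 CPM in the control group and at 7.70, 4.67 and 2.79 CPM in the cKO group. The groups did not overlap, and the log2 difference was 3.10 (edgeR, adjusted p 0.1028), and 2.67 without cKO library 1. Apoe, a lipid carrier gene with reported Zic binding at its promoter, had 24.6, 22.2 and 19.7 CPM against 79.9, 29.5 and 27.8 CPM (adjusted p 0.3802, edgeR), a log2 difference of 1.04 that was 0.37 without cKO library 1.

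The same list holds the neural crest genes Pax3, Foxd3, Snai2 and Sox10, and none passed in edgeR. Pax3, which acts with Zic1 at the neural plate border, was at 64.8, 93.3 and 110 CPM in the control group and at 15.2, 34.2 and 55.6 CPM in the cKO group, with no overlap (log2 difference -1.355, adjusted p 0.3137, edgeR; -0.998 without cKO library 1). Foxd3, an early neural crest factor, had 11.8 ± 2.29 against 5.96 ± 1.40 CPM (SD, n = 3 each; log2 difference -0.99, adjusted p 0.2512, edgeR). Snai2, a repressor of epithelial genes in migrating crest, had 117 ± 29.4 against 73.3 ± 24.4 CPM with no overlap (SD, n = 3 each). Sox10, a factor of crest and glia, overlapped, at 27.8, 37.0 and 40.4 CPM in the control group and 38.3, 13.6 and 13.52 CPM in the cKO group (log2 difference -0.69, adjusted p 0.5463, edgeR; -1.37 without cKO library 1). Atoh1, which Zic1 represses in the neural tube, was listed at 0 in all 6 libraries, and Nodal was at 0.225 CPM or less in each. In the palatal shelf 0 of 7 GLI and Hedgehog genes and 0 of the 8 tested on the second list passed (edgeR quasi-likelihood test). At an unadjusted p under 0.05 these were 0 and 3 genes, against 2.14% of all genes tested in the palatal shelf. DESeq2 called 0 of either list, against 0.0145% of all genes there.

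Markers of other tissues were measured beside the Zic genes. Of 6 periocular mesenchyme markers 5 were higher in the cKO libraries, with summed levels of 30.2 to 68.7 CPM in controls and 128 to 372 CPM in cKO, and Foxc1, a forkhead factor of the tissue around the eye, had 18.9, 8.28 and 4.46 against 195, 74.7 and 73.6 CPM. The highest sum was in cKO library 1, and the list's median log2 difference was 1.98. Only Foxc1 and Foxc2 of the 6 were higher with no overlap, as were 8.76% of all genes tested. Without cKO library 1 the count was 3 higher and 3 lower with a median of 0.45, Lmx1b going from 1.25 to -1.15 and Eya2 from 0.81 to -0.44, while Foxc1 went from 3.46 to 2.83. The summed level of cKO libraries 2 and 3 was 128 and 144 CPM, still above the controls.

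Of the other lists, the sums of endothelium, ectoderm and macrophage markers did not overlap between the groups, with cKO higher, and those of neuron, neural crest and glia, skeletal muscle and red blood cell markers overlapped. All 6 endothelial markers were higher with no overlap, as were 8.76% of all genes tested. Their sums were 301 to 308 CPM in controls and 401 to 786 CPM in cKO libraries. The 8 ectoderm markers tested of 11 were all higher, from sums of 2.16 to 10.4 CPM to 11.3 to 24.1 CPM, and the highest sum was in cKO library 3. Neuron sums were 26.0 to 131 CPM and 21.8 to 40.1 CPM, those for neural crest and glia were 70.2 to 96.0 CPM and 31.4 to 85.2 CPM, and skeletal muscle sums were 2.16 to 11.2 CPM and 7.12 to 16.4 CPM. Macrophage sums were 13.4 to 19.0 CPM and 19.2 to 36.3 CPM, so the 2 ranges nearly met. Of the 4 macrophage markers tested, 0 were higher with no overlap, against 8.76% of all genes tested. Red blood cell sums were 3026 to 5227 CPM and 3263 to 8810 CPM. No marker in any of these lists passed the threshold (0, edgeR quasi-likelihood test). At an unadjusted p under 0.05, where 12.2% of all genes lay, there were 6 of 6 endothelial, 5 of 8 ectoderm, 5 of 12 facial mesenchyme, 3 of 6 periocular, 2 of 4 neuron, 2 of 5 neural crest and glia, 1 of 2 skeletal muscle, 1 of 4 macrophage and 0 of 6 red blood cell markers tested. Among the lists other than facial mesenchyme, DESeq2 called 4 endothelial markers (Cdh5, Kdr, Pecam1 and Tie1), 2 skeletal muscle markers (Myod1 and Myf5), 1 ectoderm marker (Krt18), 1 periocular marker (Foxc1), 1 neuron marker (Dcx) and 1 neural crest and glia marker (Foxd3), against 2.32% of all genes. The edgeR filter on low counts left out Myf5, which was at 0 in the controls and at 1.60, 0.0730 and 0.274 CPM in cKO libraries 1 to 3. Without cKO library 1 the median log2 difference went from 0.81 to 0.44 for endothelium, 0.52 to 0.20 for macrophages, 0.48 to 0.04 for red blood cells, 1.94 to 1.78 for ectoderm and -0.81 to -1.37 for neural crest and glia. In that refit 1 of the 5 neural crest and glia genes, Erbb3, passed (log2 difference -1.58, adjusted p 0.044, edgeR). The refit called 29 genes in all, against 12 with all 6 libraries. The part of these tissues in the Zic levels was not tested.

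**Figure D4:**
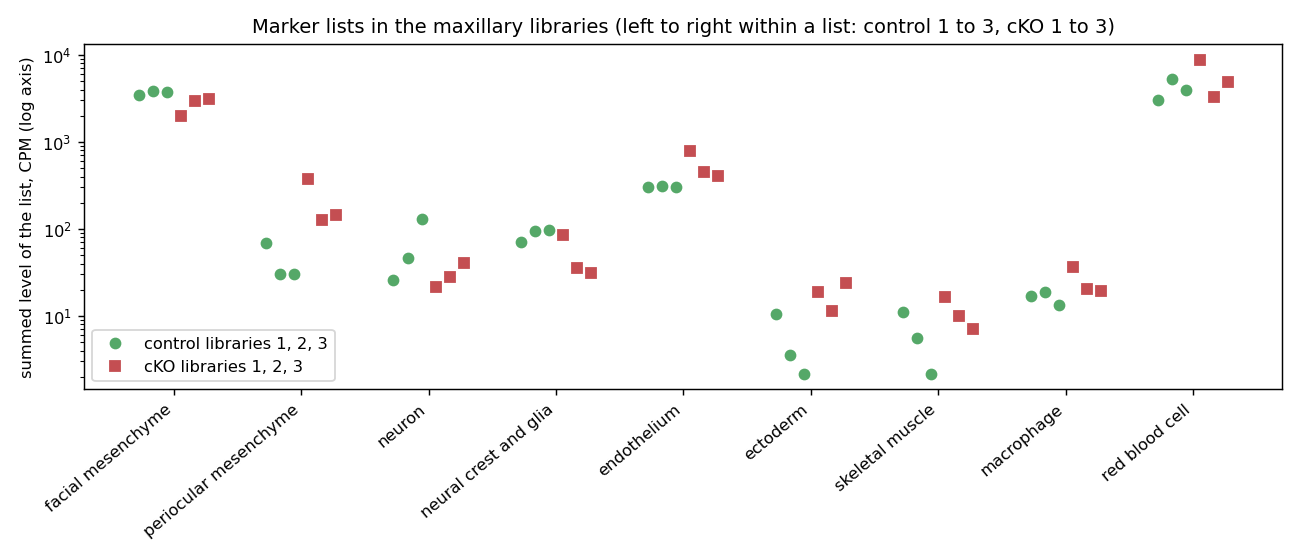
Summed CPM (log axis) of each marker list in the 6 maxillary libraries, control 1 to 3 as green circles and cKO 1 to 3 as red squares, left to right within a list. Periocular mesenchyme sums lie between 30.2 and 68.7 CPM in controls and between 128 and 372 CPM in cKO libraries, and the red blood cell sums overlap.

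Genes with the most similar profile over all 12 libraries were named by the Pearson r of log2(TPM + 1) with the mean of each pair, among 15494 genes with a mean of at least 1 TPM in 1 group. For Zic2 and Zic5 they were Wfdc1 (r 0.973), Pou3f4 (0.968), Dock5 (0.947), Gm5127 (0.942) and Itih5 (0.927). Pou3f4, a POU domain transcription factor, had 3.94 ± 0.970 TPM in control and 36.4 ± 4.55 TPM in cKO maxillary libraries, and Wfdc1, which encodes a secreted protein, had 0.0897 ± 0.0778 and 3.05 ± 1.24 TPM (SD, n = 3 each). For Zic1 and Zic4 they were D130058E05Rik (0.9125), Fezf2 (0.900), Zic5 (0.899), Zic2 (0.891) and Gm4735 (0.890). Fezf2, a forebrain transcription factor, had 0.309 ± 0.167 TPM in control and 1.06 ± 0.602 TPM in cKO libraries. The 12 points share 2 separately made tables and fall into 1 high and 3 low groups, so these r values are a description.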

How the data were processed

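Gene totals of 12 libraries were analysed in 4 groups of 3, taken from the sample titles. The authors made the deposited estimated counts and the deposited TPM values with Salmon 1.1.0, per the submitters' processing notes, which also list STAR 2.7.0, DESeq2 1.28.1 and build mm10 with no role. The transcript index and the use of strand are not given in the sources used here. TPM is scaled by transcript length and library total. Of 53392 identifiers, 53355 matched GENCODE M21 (GRCm38) once the version was dropped. Estimated counts were rounded and fitted with edgeR 4.0.16 (quasi-likelihood F-test, TMM, default filter on low counts, genotype as the only term, Benjamini-Hochberg over all genes tested, FDR 0.05), each tissue on its own 6 libraries. CPM is the count scaled by library total and TMM factor. The fit was tested on simulated data. The alternatives were DESeq2 1.42.0, limma 3.58.1 on log2(TPM + 1) and log2(TPM + 0.1), other normalisations and filters, a replicate block, and leaving out each library. The genes described, the lists and the naming rule (the 4 Zic genes, Srsf3, Pdgfra, flanking genes, list genes by size of difference, and the 5 genes most alike) were chosen with earlier results of these data known. Some genes and the forebrain marker list are not reported here. The maxillary comparison was among those results, so the Zic genes are described there with no test. Intervals and limits from a count of 0 cover counting error only.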

Additional observations from a re-analysis of the deposited data

How the results depend on the processing

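The direction of Zic2 and Zic5 in the maxillary process held in all 14 alternatives each, and 13 of 14 values stayed within the spread between replicates. The exception was limma on log2(TPM + 1), with log2 differences of 5.40 for Zic2 and 3.45 for Zic5, a scale that shrinks differences from low levels by construction. The lower bound for Zic1 ran from 28.3 to 79.9-fold over 8 alternatives. Zic4 passed the filter in neither tissue, and palatal members had a fitted value without the filter and by DESeq2 alone. The count of genes called in the maxillary process was 12 (8 higher, 4 lower), and it was 143 with no filter, 376 by DESeq2 and 2 to 29 when 1 library was left out. The lowest came without control library 2 (2) or 3 (3), and it was 4 without cKO library 2, 6 without control library 1 and 29 without cKO library 1. It was split 6 higher to 6 lower with limma on log2(TPM + 1). The palatal count of 0 was 4 by DESeq2. The cause of these moves was not tested. With the replicate number as a block the maxillary count was 40 and the palatal count 0. Libraries of the same number did not deviate together throughout (correlations of 0.060 to 0.264 in the maxillary process and -0.228 to 0.589 in the palatal shelf). Some libraries correlated best with their own number and others did not, so these values do not settle whether the number pairs the libraries. Correlations over the 6 palatal libraries changed sign in 5 of 6 alternatives. Zic1 with Zic2 went from 0.439 to -0.897 without the 2 farthest libraries and to 0.895 on log2(TPM + 1). Zic1 with Zic5 went from 0.622 to -0.797 without them and -0.081 on log2(TPM + 1), and Zic2 with Zic5 from 0.205 to -0.042 and -0.207. Zic5 had 1 count over these 6 libraries, so its log2 CPM values were set mainly by the prior count and library totals. Its r values therefore cannot show whether it varied with Zic1 or Zic2. Of the 5 genes most like each pair, 3 were shared with those on log2(TPM + 0.1) and 3 with those at a floor of 5 TPM, for both pairs. Chosen after seeing the data, the 22 named flanking and list genes were refitted without cKO library 1, and 4 changed sign (Pcca to 0.0532, Gli3 to 0.0685, Lmx1b to -1.15 and Eya2 to -0.44), none of these 4 past the threshold.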
